A study of Mus musculus with 8 samples.

Results

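The genes described here are 10 transcription factors that build and hold B cell identity, leaving out Bcl6, in germinal center-like B cells that did or did not carry Prmt5. They were taken by symbol, Ebf1, Tcf3, Foxo1, Bach2, Mef2b, Mef2c, Spib, Spi1, Pou2af1 and Ikzf1, from a table of 39017 genes and from the deposited lists of splicing events. All 10 were found and all 10 passed the filter on low values. Ebf1 stood in 2 rows of the table. The row with the identifier of the current annotation, ENSMUSG00000057098, is counted as the member, and the other row is given separately.

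The cells were iGBs, splenic B cells of C57BL6/J mice grown on 40LB fibroblasts that display CD40L and secrete BAFF, with IL-4 at 1 ng per mL, and were purified from these feeders at day 4 by elutriation, a separation by cell size. The 4 Prmt5-null cultures came from Prmt5 F/F Cγ1-cre mice (PRMT5-10617, PRMT5-10618, PRMT5-10770 and PRMT5-10771) and the 4 control cultures from Cγ1-cre mice (CTRL-10370, CTRL-10596, CTRL-10597 and CTRL-10650), so both groups carried the Cre transgene. Cγ1-cre is switched on as B cells activate the IgG1 constant region, and cells that escape it keep Prmt5. The study used young adult mice, and the labels give no age for each mouse. Prmt5, the arginine methyltransferase that was deleted, ranged from 1060 to 1994 normalized counts in Prmt5-null and from 11084 to 13087 in control libraries (log2 fold change -2.98, SE 0.17, adjusted p = 6.14e-06 from limma).

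A normalized count is the number of reads on a gene divided by a factor for the depth of its library. The libraries held 36731721 to 50366174 reads on genes, and the lowest value of any member in any library was 719 normalized counts. Differences are log2 fold changes of normalized count + 1, Prmt5-null minus control, from limma over the 16250 genes with a mean of at least 10, with Benjamini-Hochberg adjusted p-values. The median of all genes tested was 0.00. In whole cultures, fewer cells of a type and less RNA per cell cannot be told apart. B cell markers were abundant throughout, with 315878 to 369703 normalized counts over 7 genes in Prmt5-null and 348772 to 392322 in control libraries. Of 10 fibroblast markers tested, which can come from the feeder cells, all 10 had positive log2 fold changes (median 0.78), and 4 by limma, 5 by edgeR and 6 by DESeq2 were higher in Prmt5-null libraries (12 markers summed to 8763 to 17236 normalized counts against 5928 to 10486), and their part in the values below was not tested.

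B lymphocytes arise through a hierarchy of such factors. Tcf3 (E2A) and Ebf1 open the B cell program, Ikzf1 (Ikaros) and Spi1 (PU.1) act from early progenitors onward, and Foxo1 links phosphatidylinositol 3-kinase signals to differentiation. In the germinal center, Mef2b and Mef2c act upstream of Bcl6, Pou2af1 (OBF1) lends its activity to octamer-binding proteins, Spib works beside Spi1 at ETS motifs, and Bach2 holds back the plasma cell program.

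The sequences below are shown because both listed Mef2b splicing events lie in them, in the coding part of Mef2b on chromosome 8 (GRCm38, plus strand). Exon numbers follow the annotated transcript Mef2b-204. The capitals in exon 6 mark a stretch of 30 bases that a nearer 5′ splice site leaves out, and the capitals in exon 8 mark a stop codon that is read when exon 7 alone is missing.
Mef2b exon 6, chr8:70166293-70166426: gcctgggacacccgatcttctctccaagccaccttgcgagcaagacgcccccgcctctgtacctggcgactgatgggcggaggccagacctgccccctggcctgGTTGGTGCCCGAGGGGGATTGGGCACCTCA
Mef2b exon 7, chr8:70166614-70166698: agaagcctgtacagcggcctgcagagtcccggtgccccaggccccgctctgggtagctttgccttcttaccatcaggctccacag
Mef2b exon 8, first bases, chr8:70166819-70166890: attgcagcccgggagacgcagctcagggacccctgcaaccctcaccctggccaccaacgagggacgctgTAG

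The 4 annotated Mef2b forms drawn below differ in these exons. Mef2b-204 holds the long exon 6 and exon 7 and codes for 349 residues, while Mef2b-203 holds the short exon 6 and exon 7 and codes for 339. Mef2b-202 and Mef2b-201 lack exon 7, whose 85 bases are not a multiple of 3, and end at the marked stop codon with 242 and 232 residues.

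**Figure D1:**
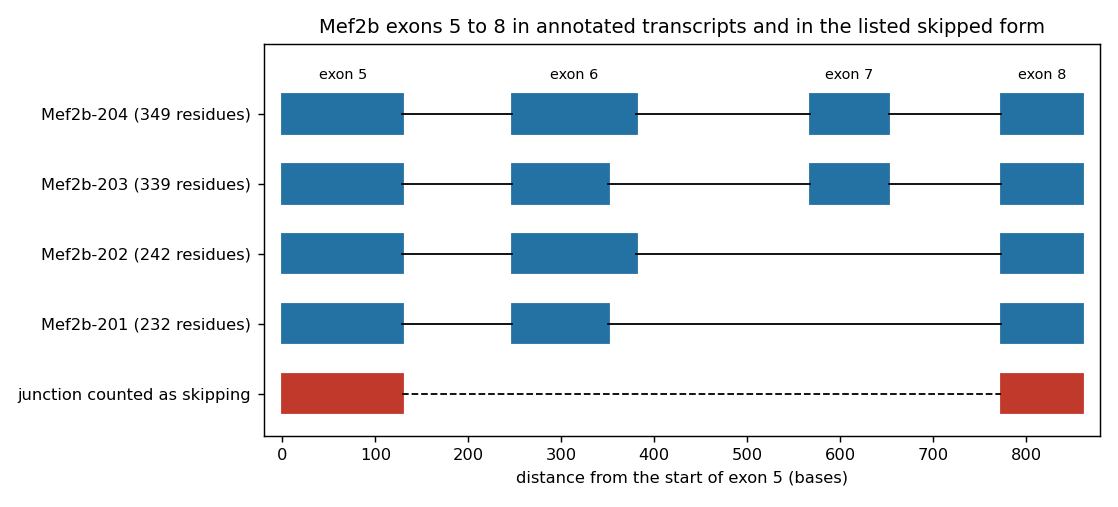
Map of Mef2b exons 5 to 8, drawn to scale by distance in bases from the start of exon 5, in 4 annotated transcripts (blue) and as the junction that was counted as skipping (red). The dashed line joins exon 5 to exon 8 and leaves out exons 6 and 7, 219 bases with the long exon 6 or 189 with the short one.

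Of the 10 members, 2 were higher and 1 was lower in Prmt5-null iGBs at an adjusted p below 0.05, beside 6.51% of all genes tested that were higher and 7.33% that were lower. Bach2 and Mef2b were higher and Spi1 was lower, and the other 7 did not pass. None of the 10 reached a 1.5-fold change by limma, edgeR or DESeq2. By limma, 6.48% of all genes passed both limits, adjusted p and 1.5-fold (3.49% higher and 2.99% lower). An unadjusted limma p below 0.05, a looser limit, was found for 4 members. Such values were common among all genes, as Spib, with an unadjusted limma p of 0.031, ranked 3912 of 16250 by p. The unadjusted counts of the other lists below stand beside the same rank. The median log2 fold change of the members was -0.04, with 4 above and 6 below 0. edgeR and DESeq2 on the recovered reads also gave 2 members higher and 1 lower. Of all 16250 genes, edgeR gave 1100 higher and 1174 lower, and DESeq2 gave 1524 higher and 1551 lower. In 3 of the 8 fits that left out 1 library, 1 member passed both limits, Mef2b without PRMT5-10770 or CTRL-10596 and Bach2 without CTRL-10597.

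**Figure D2:**
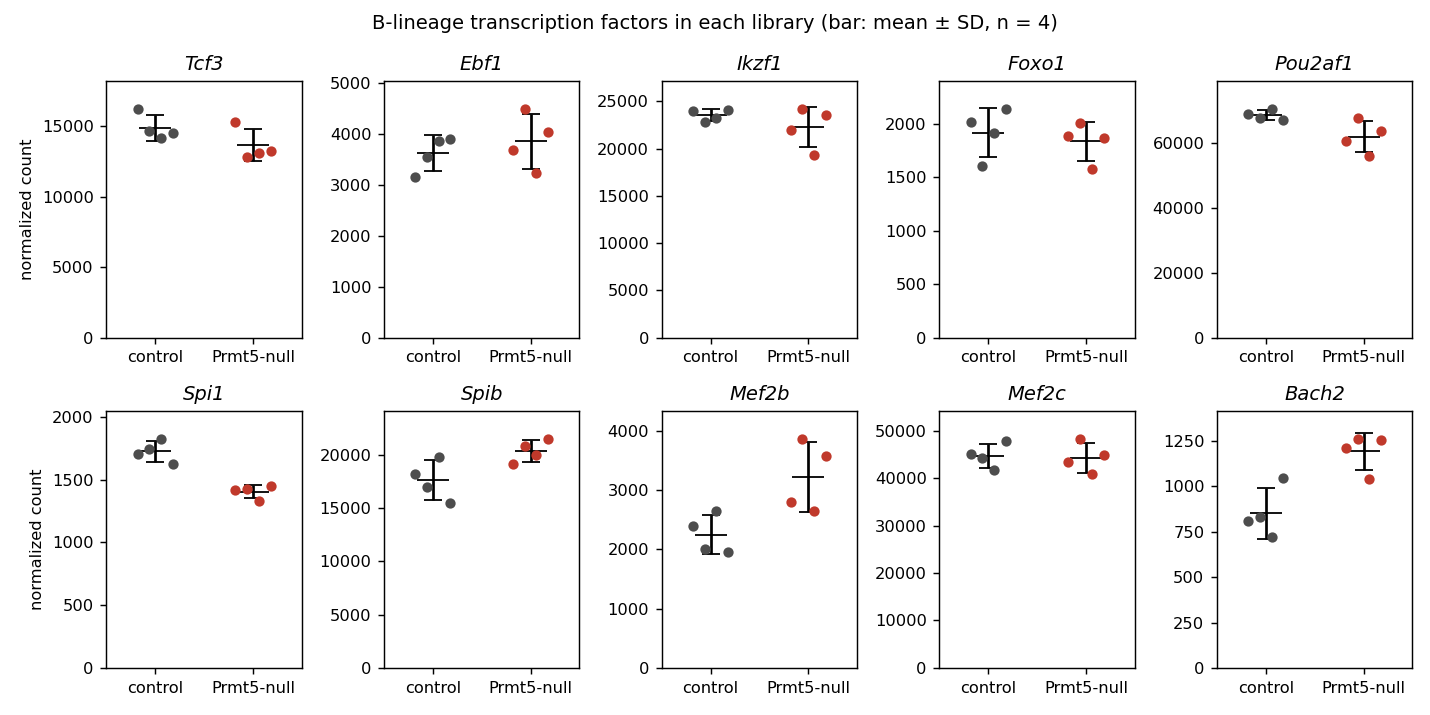
Normalized counts of the 10 factors in each of 4 control (grey) and 4 Prmt5-null (red) libraries, with the mean and SD as bars and each axis starting at 0. The libraries of the 2 genotypes are apart for Spi1, and they overlap for the other 9 genes.

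Bach2 (ENSMUSG00000040270, chromosome 4 from 32238804 to 32586108, GRCm38), a repressor that keeps B cells from becoming plasma cells, rose. Its normalized counts were 1213, 1263, 1043 and 1256 in Prmt5-null mice PRMT5-10617, PRMT5-10618, PRMT5-10770 and PRMT5-10771. They were 832, 719, 1046 and 808 in control mice CTRL-10370, CTRL-10596, CTRL-10597 and CTRL-10650. A single control library, CTRL-10597, reached the lowest Prmt5-null library, and the other 3 lay below all 4. The log2 fold change was 0.50 (SE 0.12, 95% confidence interval 0.24 to 0.75, adjusted p = 0.0162 from limma), and the exact two-sided permutation test over libraries gave p = 0.0571. The adjusted p was 0.0554 without PRMT5-10771 and 0.0527 without CTRL-10596. An antisense gene, Bach2os, shares 537 exonic bases with Bach2, 5.40% of its exonic length, and the strand setting of the counting is not given in the sources used here.

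Mef2b (ENSMUSG00000079033, chromosome 8 from 70139711 to 70167488), a MADS box activator of the germinal center that is mutated in human B cell lymphoma, also rose. It had 2792, 3863, 2639 and 3578 normalized counts in Prmt5-null mice PRMT5-10617, PRMT5-10618, PRMT5-10770 and PRMT5-10771. The control mice CTRL-10370, CTRL-10596, CTRL-10597 and CTRL-10650 had 2011, 2641, 1950 and 2391. The highest control and the lowest Prmt5-null library were thus almost level. The log2 fold change was 0.51 (SE 0.14, 95% confidence interval 0.21 to 0.81, adjusted p = 0.0282 from limma; exact two-sided permutation p = 0.0571). Its adjusted p was 0.0792 in a fit without an intensity trend, 0.0544 and 0.0884 without PRMT5-10618 or PRMT5-10771, and 0.0759 and 0.0797 without CTRL-10370 or CTRL-10597. Mef2b shares 62 exonic bases, 4.42% of its exonic length, with Borcs8 on the same strand.

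The related factor Mef2c (ENSMUSG00000005583, chromosome 13 from 83504034 to 83667080), which carries B cell receptor signals to proliferation, had 44325 ± 3138 normalized counts in Prmt5-null and 44753 ± 2547 in control libraries (SD, n = 4 each). Its log2 fold change was -0.01 (95% confidence interval -0.20 to 0.17, adjusted p = 0.934 from limma). The Mef2c interval ended below the lower end of the Mef2b interval, while a direct test between the 2 genes was not run. Mef2a and Mef2d, the other family members, had log2 fold changes of -0.04 and -0.16, with adjusted p-values of 0.835 and 0.489 from limma.

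Spi1 (ENSMUSG00000002111, chromosome 2 from 91082390 to 91115756), the ETS factor PU.1 of B and myeloid cells, fell. Its normalized counts were 1416, 1423, 1331 and 1452 in Prmt5-null mice PRMT5-10617, PRMT5-10618, PRMT5-10770 and PRMT5-10771. In control mice CTRL-10370, CTRL-10596, CTRL-10597 and CTRL-10650 they were 1743, 1827, 1625 and 1708. All 4 Prmt5-null libraries lay below all 4 controls. This made Spi1 the 1 member of 10 without overlap, beside 19.8% of all genes tested, of which 10.2% were lower and 9.67% higher. The exact two-sided permutation p was 0.0286, the least that 4 against 4 libraries can give. The log2 fold change was -0.30 (SE 0.07, 95% confidence interval -0.46 to -0.13, adjusted p = 0.0218 from limma). The adjusted p was 0.0507 without PRMT5-10771, 0.0546 without CTRL-10370 and 0.0689 without CTRL-10596.

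Of 10 myeloid markers found, only 3 were high enough to be tested, and the part of myeloid cells in the Spi1 values was not tested. The 3 myeloid markers tested all had positive log2 fold changes, and Emr1, which encodes a macrophage surface marker, rose (0.70, adjusted p = 0.0424 from limma). The whole list of myeloid markers summed to 184 to 301 normalized counts in Prmt5-null and 127 to 222 in control libraries. Csf1r, a Spi1 target of macrophages, had at most 10.7 normalized counts in any library, and Elane was at 0.

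Spib (ENSMUSG00000008193, chromosome 7 from 44525993 to 44532071), the lymphoid relative of Spi1, ranged from 19151 to 21533 normalized counts in Prmt5-null and from 15452 to 19847 in control libraries. Control CTRL-10596 overlapped the Prmt5-null range and the other 3 controls lay below it. Its log2 fold change of 0.21 (95% confidence interval 0.02 to 0.40) had an unadjusted p of 0.031 and an adjusted p of 0.129 from limma and did not pass. Spic, the remaining member of this ETS branch, had a mean of 20.8 normalized counts in Prmt5-null and 13.8 in control libraries, with a confidence interval of its log2 fold change from -0.92 to 1.70. Irf4 and Irf8, which bind composite DNA sites together with Spi1 or Spib, had log2 fold changes of 0.19 and -0.01 (adjusted p = 0.134 and 0.950 from limma). Irf4 did not pass, but its libraries did not overlap, at 14055 to 15374 normalized counts in Prmt5-null and 11263 to 13738 in control. Its unadjusted limma p was 0.033, and 9.67% of all genes tested were higher without overlap.

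The factors that found the lineage did not pass the test. Tcf3 (ENSMUSG00000020167, chromosome 10 from 80409514 to 80433647) had 13634 ± 1135 normalized counts in Prmt5-null and 14906 ± 922 in control libraries (SD, n = 4 each; log2 fold change -0.13, 95% confidence interval -0.31 to 0.05, adjusted p = 0.312 from limma). Ebf1 (ENSMUSG00000057098, chromosome 11 from 44617317 to 45008091) had 3867 ± 541 against 3630 ± 349 normalized counts, a log2 fold change of 0.09 (95% confidence interval -0.15 to 0.32, adjusted p = 0.642 from limma). The Ebf1 ranges, 3233 to 4507 in Prmt5-null and 3163 to 3916 in control libraries, overlapped, with 2 of the 4 Prmt5-null libraries above every control. Ikzf1 (ENSMUSG00000018654, chromosome 11 from 11685003 to 11772926) had 22281 ± 2153 against 23530 ± 617 normalized counts and a log2 fold change of -0.08 (95% confidence interval -0.27 to 0.10, adjusted p = 0.548 from limma). Together these intervals leave room for log2 fold changes from -0.31 to 0.32.

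The second row named Ebf1, ENSMUSG00000078561, fell, with far fewer reads than the first row. It had 119, 102, 95.2 and 117 normalized counts in the Prmt5-null and 160, 160, 149 and 151 in the control libraries, in the same order, with no overlap between genotypes. Its log2 fold change was -0.52 (SE 0.14, adjusted p = 0.0338 from limma), and the exact two-sided permutation p was 0.0286. Its adjusted p was 0.0711 without the filter on low values, reached 0.0567 with the experiment as a block, and lay between 0.0632 and 0.0838 in 7 of the 8 fits that left out 1 library, where without PRMT5-10617 it was 0.0433. The identifier was not in the annotation used here, so its position and its relation to Ebf1 transcripts are not given.

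Foxo1 (ENSMUSG00000044167, chromosome 3 from 52268336 to 52353221), which supports the dark zone of the germinal center, had 1836 ± 180 normalized counts in Prmt5-null and 1918 ± 230 in control libraries (log2 fold change -0.06, 95% confidence interval -0.29 to 0.17, adjusted p = 0.750 from limma). It shares 674 exonic bases with the antisense gene Gm20402, 7.78% of its exonic length. Its relative Foxo3 had a log2 fold change of 0.45 and an adjusted p of 0.0535 from limma. Pou2af1 (ENSMUSG00000032053, chromosome 9 from 51213708 to 51240080) had 61853 ± 4898 against 68399 ± 1609 normalized counts, a log2 fold change of -0.15 (95% confidence interval -0.33 to 0.04, adjusted p = 0.277 from limma). Of the octamer-binding proteins that recruit it, Pou2f2 (Oct2) had a log2 fold change of -0.14 and an adjusted p of 0.703 from limma.

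**Figure D3:**
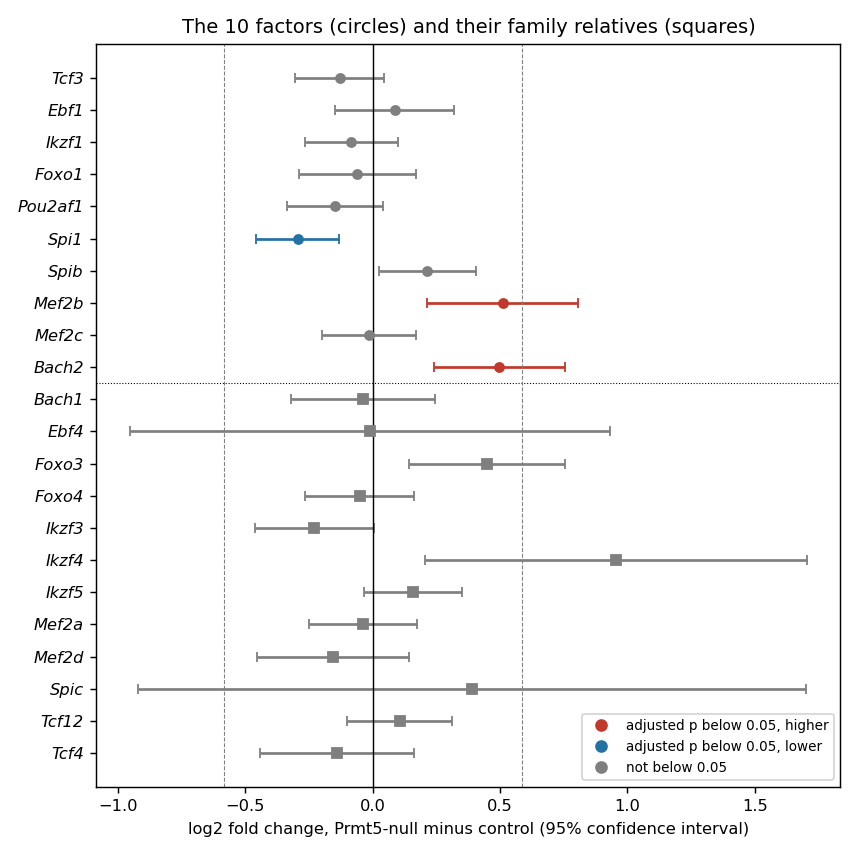
Log2 fold changes, Prmt5-null minus control, with 95% confidence intervals for the 10 factors (circles) and 12 family relatives (squares), with dashed lines at a 1.5-fold change. Bach2 and Mef2b (red) lie above 0, Spi1 (blue) lies below 0, and the points of the relatives, Foxo3 at 0.45 included, are grey because none had an adjusted p below 0.05.

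Among the Prmt5-null libraries, the members tended to be low or high together. Library PRMT5-10770 was the lowest of its genotype for 8 of the 10 factors, and library PRMT5-10618 was the highest for 7. The 4 control libraries shared these places more evenly, with 4 lowest and 5 highest values in library CTRL-10597. These places were not counted over all genes tested, so they cannot be called particular to the members. Normalized counts summed to 46787703 in PRMT5-10770 and to 43644519 to 43676897 in the other Prmt5-null libraries, and the part of this difference was not tested. The coefficient of variation was lowest for Spi1 in Prmt5-null libraries, at 3.70% beside 4.85% in control libraries, and lowest for Pou2af1 in control libraries, at 2.35%. Mef2b varied most in Prmt5-null libraries, at 18.5%, and Bach2 most in control libraries, at 16.3%.

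Levels of different genes were compared per kilobase of exonic length, counting every annotated exon of a gene once. In control libraries Pou2af1 was highest, with 26834 ± 631 normalized counts per kb (SD, n = 4), followed by Spib at 6146 ± 651, Ikzf1 at 4073 ± 107, Tcf3 at 3691 ± 228 and Mef2c at 2848 ± 162. Mef2b at 1602 ± 232, Spi1 at 640 ± 31.1, Ebf1 at 372 ± 35.7, Foxo1 at 221 ± 26.5 and Bach2 at 85.6 ± 14.0 followed. The order was the same in Prmt5-null libraries. The libraries of neighbouring genes overlapped for Ikzf1 and Tcf3 in both genotypes, and for Mef2c and Mef2b in Prmt5-null libraries, where Mef2b reached 2292 ± 424 and Mef2c 2821 ± 200 normalized counts per kb. For every other pair of neighbours the lowest library of the higher gene lay above the highest library of the lower gene. A gene whose annotated exons are mostly unused in B cells is placed too low by this scale.

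**Figure D4:**
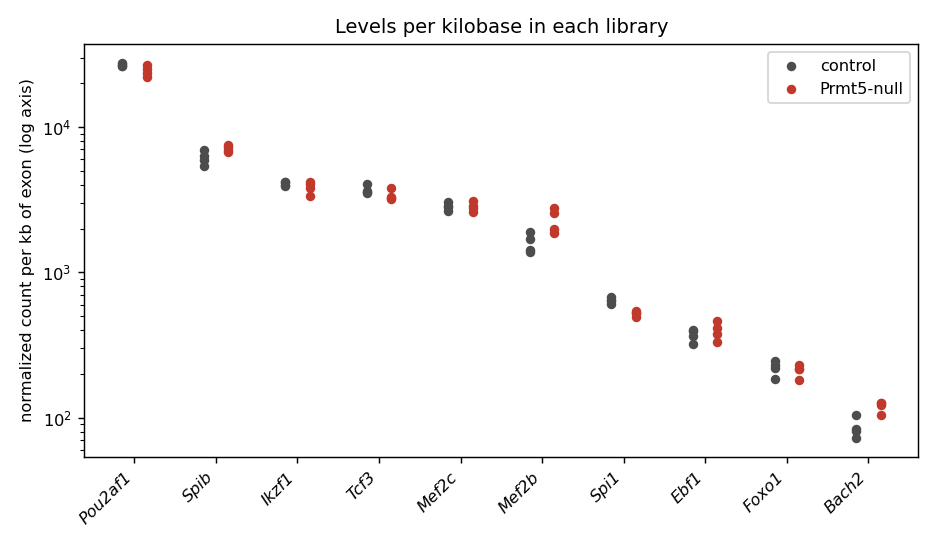
Normalized counts per kilobase of exonic length, on a log axis, for each of the 4 control (grey) and 4 Prmt5-null (red) libraries, with genes ordered by their control mean. Levels run from 26834 for Pou2af1 to 85.6 for Bach2 in control libraries, with the same order in both genotypes.

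Of 1918 splicing events that the authors listed as different between the genotypes, 5 lay in 4 of the 10 members, Mef2b, Bach2, Ikzf1 and Mef2c, beside 11.2% of genes with a mean above 50 that carried at least 1 listed event. A skipped exon was listed for 3 members, beside 6.70% of these genes, and an altered 5′ splice site for 2, beside 1.41%. These shares were not matched to the level of the members, whose lowest mean over all libraries was 1022 normalized counts, for Bach2. No member had a retained intron, a pair of mutually exclusive exons or an altered 3′ splice site in these lists. The inclusion level runs from 0 to 1 and estimates, from read counts scaled by length, what share of the compared forms keeps the stretch. Because the events were chosen for a difference between these same libraries, their values are a description and were not tested. The deposited lists give 4 values per genotype without naming the mice, and their first list was read as control, as the legend of the study's table defines the difference.

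The skipped exon of Mef2b is exon 7, printed above. Its inclusion level was 1.00, 0.983, 0.965 and 0.934 in the control list and 0.914, 0.771, 0.922 and 0.798 in the Prmt5-null list, so all 4 Prmt5-null values lay below all controls. Skipping was seen in 0, 1, 2 and 3 reads in control libraries, beside 115, 99, 93 and 72 reads with the exon. In Prmt5-null libraries it was seen in 6, 21, 5 and 21 reads, beside 108, 119, 100 and 140. Most reads counted for this event thus held the exon in both genotypes, with a mean inclusion of 0.971 in control and 0.851 in Prmt5-null libraries. Transcripts that join exon 6 to exon 8, as Mef2b-202 and Mef2b-201 do, also lack exon 7. Their junction is not counted as skipping here, so these levels are not the share of all Mef2b transcripts with exon 7. The junction counted as skipping joins exon 5 to exon 8, so exon 6 is missing as well. No annotated Mef2b transcript has this junction. The 219 or 189 bases left out are a multiple of 3, so the reading frame of Mef2b-204 or Mef2b-203 goes on in exon 8 and the stop codon in capitals is not read.

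The second Mef2b event compares the long and short form of exon 6 with exon 8 as the next exon, as in Mef2b-202 and Mef2b-201. The inclusion level of the long form was 1.00 in all 4 control libraries and 0.801, 0.707, 0.763 and 0.763 in Prmt5-null libraries. These levels rest on few reads, with 11 for the long and 0 for the short form in all control libraries together and 34 and 9 in the Prmt5-null libraries. The 30 bases in capitals begin with GT, the bases that start nearly all introns, and code in frame for the 10 residues by which Mef2b-202 exceeds Mef2b-201.

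In Bach2, exon 3 (chr4:32417435-32417583, 149 bases), part of the 5′ UTR, had a lower inclusion level in the Prmt5-null list. Its inclusion level was 1.00, 1.00, 1.00 and 0.919 in control and 0.752, 0.812, 0.694 and 0.891 in Prmt5-null libraries, again without overlap. Skipping was counted in 1 read in all control libraries together, beside 86 with the exon. In Prmt5-null libraries it was counted in 8 reads, beside 67. The annotated coding sequence begins downstream of this exon. Of the members with listed events, Bach2 and Mef2b had higher normalized counts in Prmt5-null libraries, while Ikzf1 and Mef2c did not pass. A link between the splicing events and these levels was not tested.

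Ikzf1 had an altered 5′ splice site in a first exon (chr11:11685175-11685197 is the stretch of 23 bases between both sites), which is noncoding and annotated with the stretch in one transcript and without it in another. The inclusion level of the stretch was 0.315, 0.123, 0.491 and 0.184 in control and 0.689, 0.549, 0.646 and 0.396 in Prmt5-null libraries. Here the direction was opposite to that in Mef2b and Bach2, and the lowest Prmt5-null value overlapped the highest control value. Reads per library numbered 15 to 32, with 21 for the long and 51 for the short form in control libraries and 61 and 41 in Prmt5-null libraries.

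The listed event of Mef2c was small once reads inside the exon were counted. Its coding exon (chr13:83633055-83633241, 187 bases) had inclusion levels of 0.989, 1.00, 1.00 and 0.993 in control libraries and 1.00 in all 4 Prmt5-null libraries, on that count. All 6 skipping reads came from 2 control libraries, beside 760 to 1149 reads with the exon in each library. With junction reads alone, the control levels were 0.273, 1.00, 1.00 and 0.556. The junctions that define this event jump over further annotated exons, and no annotated Mef2c transcript has the listed skipping junction.

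**Figure D5:**
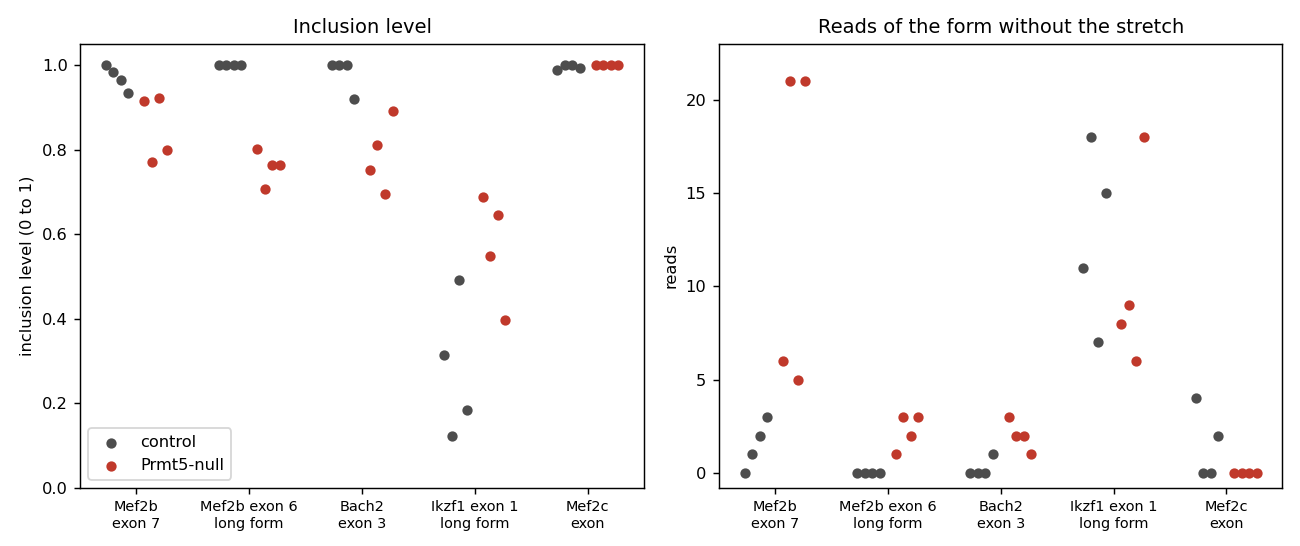
Inclusion level (left, from 0 to 1) and reads of the form without the stretch (right) for the 5 listed events of the members, with 4 control values in grey and 4 Prmt5-null values in red, in the order of the deposited lists, which names no mouse. Mef2b exon 7, the long Mef2b exon 6 and Bach2 exon 3 have lower inclusion in all 4 Prmt5-null values, Ikzf1 has mostly higher inclusion, and Mef2c lies at 0.989 or above throughout.

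The family relatives of the members were examined in the same fit. Of 12 relatives tested, none passed by limma or edgeR and 1, Foxo3, passed by DESeq2, while 2 had an unadjusted limma p below 0.05. Tcf4 and Tcf12, the E proteins beside Tcf3, had log2 fold changes of -0.14 and 0.11 (adjusted p = 0.544 and 0.499 from limma), and Ikzf3 (Aiolos) had -0.23 (adjusted p = 0.176). Of 17 partners and inhibitors, 2 were higher and 1 was lower at an adjusted p below 0.05 by limma or edgeR. This stands beside the 6.51% and 7.33% of all genes by limma. DESeq2 gave 2 higher and 3 lower, beside 1524 higher and 1551 lower of all 16250 genes. An unadjusted limma p below 0.05 was found for 7 of the 17. Hdac4 rose (0.74, adjusted p = 0.00651) and Hdac9 fell (-0.85, adjusted p = 0.00196), and both encode class IIa deacetylases that bind Mef2 proteins. Hdac5 and Hdac7, of the same class, had log2 fold changes of 0.03 and -0.07 (adjusted p = 0.874 and 0.739 from limma). The Id proteins Id1, Id2 and Id3, which sequester Tcf3, had log2 fold changes of 0.66, 0.11 and -0.21 (adjusted p = 0.168, 0.775 and 0.452 from limma).

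Of 16 other factors of B cell development or the germinal center, 2 were higher and none was lower by limma, edgeR or DESeq2. This stands beside the 6.51% of all genes higher and 7.33% lower by limma. The unadjusted limma p was below 0.05 for the same number, 2. Etv6 rose by 0.43 (adjusted p = 0.0302) and Myb by 0.32 (adjusted p = 0.0354). Pax5, the factor that commits cells to the lineage, had a log2 fold change of 0.20 (adjusted p = 0.200 from limma), and Bcl6 had -0.08 (adjusted p = 0.845 from limma).

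Genes known as targets of the members moved in both directions. At an adjusted p below 0.05 by limma, 6.51% of all genes tested were higher and 7.33% lower. DESeq2 passed more genes, with 1524 higher and 1551 lower of 16250, against 1058 and 1191 by limma. Low unadjusted p-values were common, as Spib, with an unadjusted limma p of 0.031, ranked 3912 of 16250 genes by p. Of 16 B lineage targets of Ebf1, Tcf3, Pou2af1 and the ETS factors, 2 were higher and 1 was lower by limma or edgeR, 2 were higher and 2 lower by DESeq2, which added Cd74, and 7 had an unadjusted limma p below 0.05. Cr2, the complement receptor CD21, rose by 1.03 on the log2 scale (adjusted p = 0.00137) and Fcrla by 0.50 (adjusted p = 0.0219), while Cd79a, the signaling chain of the B cell receptor, fell by 0.74 on the log2 scale (adjusted p = 0.000327). Of 12 Foxo1 targets tested, 3 were higher and none was lower by limma, edgeR or DESeq2, among them Il7r at a log2 fold change of 1.79 (adjusted p = 0.00127) and Cxcr4 at 0.47 (adjusted p = 0.00950). The unadjusted p was below 0.05 for 5 of them. The median of that list was 0.07, beside 0.00 for all genes tested, and Foxo1 itself did not pass. Of 10 plasma cell genes, the program that Bach2 represses, 2 were lower and none was higher by limma or edgeR, 4 were lower and none higher by DESeq2, and 7 had an unadjusted limma p below 0.05. Prdm1 (Blimp-1) had a log2 fold change of -0.48 (adjusted p = 0.0428 from limma) and Xbp1 of -0.45 (adjusted p = 0.0305 from limma). The median of the plasma cell list was -0.35, with 7 of its 10 genes below 0. In none of the 10, Prdm1 and Xbp1 included, did all Prmt5-null libraries lie below all controls. In 1 they all lay above. Of all genes tested, 10.2% were lower and 9.67% higher without overlap.

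Of 4 T cell markers tested, 2 had positive and 2 negative log2 fold changes, from -0.94 to 0.69. Only Lck, a kinase of T cell receptor signaling, passed, and it fell (-0.94, adjusted p = 0.000852 from limma). Cd3e was at 0 in all libraries, and the list summed to 1995 to 2954 normalized counts in Prmt5-null and 2102 to 2878 in control libraries. Among the B cell markers Fas rose by 0.47 on the log2 scale (adjusted p = 0.00504) beside the fall of Cd79a. The 4 fibroblast markers that rose by limma were Col3a1 (1.02, adjusted p = 0.0136), Sparc (0.83, adjusted p = 0.0368), Thbs1 (0.80, adjusted p = 0.0416) and Col1a2 (0.72, adjusted p = 0.0213). Thbs1 did not pass by DESeq2. Of the 10 fibroblast markers tested, 1 was higher without overlap between the genotypes, beside 9.67% of all genes tested.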

How the data were processed

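RNA-seq of 4 Prmt5-null and 4 control iGB cultures was used, 1 library per mouse. Per the labels, RNA was depleted of ribosomal RNA and sequenced from stranded KAPA libraries. The submitters' notes name Trimmomatic 0.32, STAR 2.3.0e, featureCounts 1.4.4, DESeq2 1.14.1 and the GRCm38 (mm10) build. The authors deposited for each gene a normalized signal, its count divided by the DESeq2 size factor of the library. In every library 100% of values came out as whole reads (relative tolerance 1e-06), which gave the depths. Splicing events came from rMATS, deposited with inclusion levels and read counts. The authors' p-values, FDR values and fold changes were not used.

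limma 3.58.1 (eBayes with trend, R 4.3.3) was run on log2(normalized count + 1) for genes with a mean of at least 10. A pseudocount of 10, other filters, quantile normalization, no trend, edgeR 4.0.16, DESeq2 1.42.0, each library left out and the experiment as a block were alternatives. The main limma fit, edgeR and DESeq2 were also run on simulated counts, and the other alternatives were not. Positions and exonic lengths came from GENCODE vM21 (GRCm38). Members and lists were chosen with earlier results of these data known. Named genes were the 10 members with their splicing events, Prmt5, 15 relatives, partners or opponents taken whatever their values, and from each other list at most the 3 largest changes past an adjusted p of 0.05. Csf1r, Elane and Cd3e as defining markers, Spic, Id1, Cd74, Hdac5, Hdac7 and a 4th fibroblast gene were added after values were seen. Where 2 rows shared a symbol, as for Ebf1, Hdac4 and Cr2, the row with the higher control mean was used. The other row is given for Ebf1 only. Some genes counted in the lists are not reported here by name.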

Additional observations from a re-analysis of the deposited data

Results flagged for a closer look

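Of 27 groups of 4 values tested for a value far from the others, 1 was flagged, and chance flags about 1 in 20. Tcf3 had 15319 normalized counts in Prmt5-null library PRMT5-10617, above the other 3 Prmt5-null libraries by 0.840 of the range of the group, past Dixon's 95% critical value.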

How the results depend on the processing

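The 10 members kept their direction and side of the threshold in 89 of 90 values under 9 settings that kept all libraries, and the exception was Mef2b without an intensity trend, which left 1 member higher. Leaving out each library in turn gave 0 to 2 members higher, 0 to 1 lower and 0 to 1 past 1.5-fold. The member past 1.5-fold was Mef2b without PRMT5-10770 (0.60) or CTRL-10596 (0.59), and Bach2 without CTRL-10597 (0.60). Foxo1 and Mef2c, which did not pass, changed sign in some of these fits, with log2 fold changes from -0.14 to 0.0094 for Foxo1 (positive without PRMT5-10770) and from -0.057 to 0.024 for Mef2c (positive without PRMT5-10770 or CTRL-10597). No paired analysis was possible because the genotypes share no mouse numbers. Which of the 2 experiments a library belonged to is not labelled, so the experiment block was fitted in all 18 balanced placements, and Bach2, Mef2b and Spi1 passed in each (highest adjusted p 0.0307, 0.0472 and 0.0425 from limma). A minimum of 20 reads in every library left 2 of the 5 splicing events, those of Mef2b exon 7 and Mef2c. With junction reads alone the Mef2c inclusion level differed by 0.293, against 0.0045 with reads inside the exon, which follows from the fewer reads counted with the exon. Depth limits the splicing values, since the other 3 events had 2 to 32 reads per library.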

Other observations

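Spib and Spi1 recognise similar ETS motifs, and their ratio within a library was looked at after their values had been seen. It was 13.5, 14.6, 15.02 and 14.8 normalized counts of Spib per normalized count of Spi1 in Prmt5-null libraries PRMT5-10617, PRMT5-10618, PRMT5-10770 and PRMT5-10771. In control libraries CTRL-10370, CTRL-10596, CTRL-10597 and CTRL-10650 it was 9.74, 10.9, 9.51 and 10.7. The ratio is not per gene length and was not tested.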
